A study of Mus musculus with 4 samples.

Results

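The selenoprotein mRNAs examined here were 10 named genes, *Gpx1*, *Gpx4*, *Selenow*, *Selenom*, *Selenop*, *Selenok*, *Selenot*, *Selenof*, *Txnrd1* and *Txnrd2*, out of the 31053 genes in the count tables. They were found by matching Ensembl gene identifiers to GENCODE M21 symbols, with no cut on a measured value. The annotation marks a selenocysteine codon in each of the 10, as it does in 14 other genes listed as selenoproteins.

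The samples were wild-type (WT) primary cortical neurons, which the methods describe as dissociated from the cortices of C57BL/6J mouse embryos and cultured with floxuridine, an agent that limits dividing cells. RNA bound to the small-subunit ribosomal protein RPS2 was collected by enhanced crosslinking and immunoprecipitation (eCLIP), in which complexes are crosslinked, the RNA is cut with RNase I and an antibody pulls the complexes down. The IP and total RNA, which was taken before the pulldown, have 2 libraries each, and the study read IP over total RNA as a measure of translational efficiency. The labels list rRNA depletion for the IP and no treatment for total RNA. The methods place a depletion step after library preparation and do not name the libraries. Whether total RNA was depleted is therefore not known, and if the labels hold, depletion and IP cannot be told apart. Library totals ran from 4899718 to 16460545 counts.

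Selenoproteins carry selenocysteine, an amino acid in which selenium takes the place of the sulphur of cysteine, and most of those with a known activity are redox enzymes. Selenocysteine is encoded by UGA, which is a stop codon in other mRNAs, and its insertion needs a stem-loop in the 3′ untranslated region (the SECIS element), the SECIS-binding protein SECISBP2, the elongation factor EEFSEC and a dedicated tRNA. A UGA that is not recoded ends the protein early, and a stop codon well upstream of the last exon junction can mark an mRNA for nonsense-mediated decay. In brain, selenium arrives largely as the secreted protein SELENOP, taken up by neurons through the receptor LRP8, and GPX4 protects neurons from lipid peroxidation.

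The recoded codons of 7 of the genes are printed here because the genes differ in where the codon lies, and because these include the genes with the highest and the lowest IP over total RNA. Each line is the mRNA-sense sequence of the GENCODE M21 transcript, 12 bases to each side, with the UGA codon in capitals as TGA.
Selenot: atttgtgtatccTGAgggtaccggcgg
Selenof: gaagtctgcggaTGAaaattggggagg
Selenow: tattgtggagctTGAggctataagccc
Gpx4: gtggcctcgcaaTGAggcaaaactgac
Selenok: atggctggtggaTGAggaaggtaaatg
Txnrd1: cagtctggctgcTGAggttaagcccca
Txnrd2: gtgactggttgcTGAggctaagtcacc
In mm10 these codons lie in coding exons at chr3:58585238-58585240 (plus strand, exon 2 of 6, *Selenot*), chr3:144590645-144590647 (plus strand, exon 3 of 5, *Selenof*) and chr7:15920464-15920466 (minus strand, exon 2 of 6, *Selenow*). Those of *Gpx4* and *Selenok* lie at chr10:80054737-80054739 (plus strand, exon 3 of 7) and chr14:29973440-29973442 (plus strand, exon 4 of 5). Those of the thioredoxin reductases lie at chr10:82896037-82896039 (plus strand, exon 14 of 14, *Txnrd1*) and chr16:18477772-18477774 (plus strand, exon 17 of 18, *Txnrd2*).

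The 10 mRNAs hold 19 selenocysteine codons, because *Selenop* has 10 and each of the others has 1. In *Selenow*, *Selenop*, *Gpx1* and *Selenot* the first codon comes early, at residue 13 of 88, 59 of 380, 47 of 201 and 49 of 195. It lies at residue 48 of 145 in *Selenom*, 73 of 197 in *Gpx4* and 93 of 162 in *Selenof*. In *Selenok*, *Txnrd1* and *Txnrd2* it lies at the very end, at residue 92 of 94, 498 of 499 and 526 of 527, so that reading it as a stop would remove 2, 1 and 1 residues after it. The base after the first codon was G in 7 of the 10 and A, C and T in 1 each (*Selenof*, *Selenom* and *Selenop*).

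All 10 mRNAs were counted in every library and passed the filter on low counts. Levels are CPM (counts scaled by effective library size), and they are compared between genes per kilobase of the exonic length given in the tables, which pools the exons of all isoforms. This length is 5819 bases in *Selenof*, 7086 in *Txnrd1* and 736 in *Selenow*, where the transcript used for the codon has 1514, 3325 and 736. The order of genes therefore depends on the length used. *Selenow*, which encodes a small protein with a thioredoxin fold, was the most abundant per length in total RNA, at 135 and 152 CPM per kilobase in replicates 1 and 2. *Selenom* followed at 31.9 and 22.5, *Gpx4* at 16.7 and 22.6, *Gpx1* at 28.3 and 10.8 and *Selenok* at 9.89 and 17.2. *Selenow* stood clear of *Selenom*, while each of the next 3 neighbours in this order overlapped over the 2 libraries.

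Below *Selenok* the levels per kilobase in total RNA were 7.45 and 6.99 for *Selenot*, 10.7 and 3.47 for *Selenop*, 5.15 and 6.17 for *Txnrd1* and 6.12 and 4.41 for *Selenof*, and these neighbours overlapped as well, while *Selenot* lay below the range of *Selenok*. *Txnrd2*, the mitochondrial thioredoxin reductase, was lowest at 2.07 and 1.46, below the range of *Selenof*. In the IP the order was nearly the same, with *Selenow* first at 172 and 216 CPM per kilobase and *Txnrd2* last at 1.72 and 1.26. On these pooled lengths *Selenof*, at 8.12 and 7.24, now lay above *Txnrd1*, at 6.64 and 6.45, without overlap. The places of these genes in either kind of library depend on the length used.

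**Figure D1:**
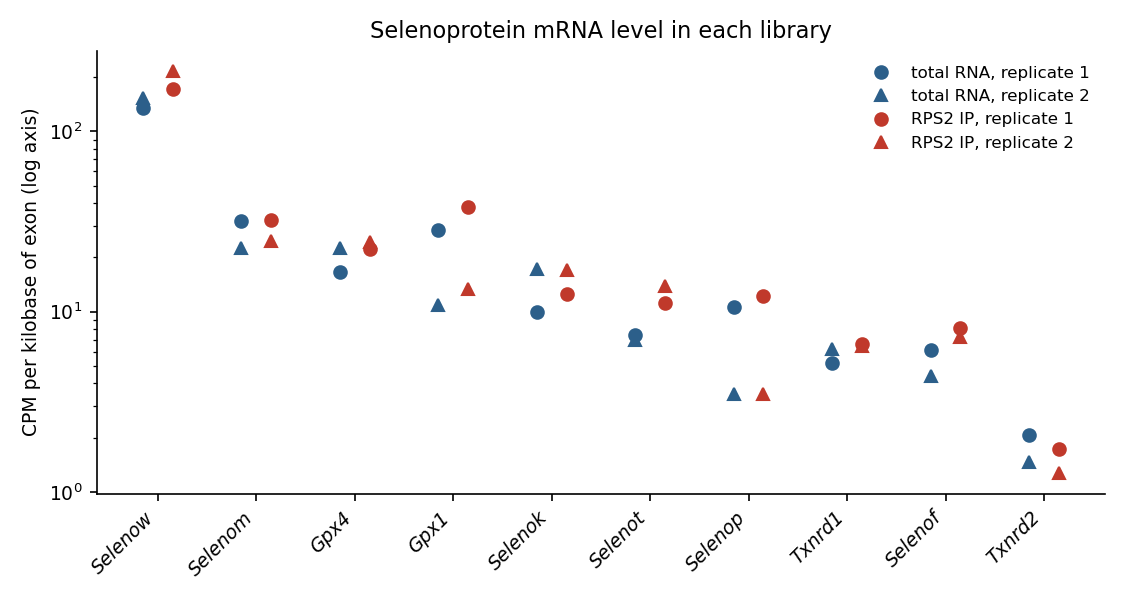
Level of each selenoprotein mRNA in each of the 4 libraries, in CPM per kilobase of exon on a log axis, with genes ordered by their mean in total RNA (blue, total RNA; red, RPS2 IP; circles, replicate 1; triangles, replicate 2). *Selenow* lies above the other genes in every library and *Txnrd2* below them, and the triangles of *Gpx1* and *Selenop* lie far below their circles in both kinds of library.

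The question put to the comparison of IP with total RNA was which of these mRNAs were more or less associated with RPS2 than their abundance would give. *Selenot*, *Selenof* and *Selenow* were higher in the IP, by 1.73-fold, 1.47-fold and 1.34-fold, when libraries with the same replicate number were compared, and 0 of the 10 were lower. Of the 10, 8 were above 0 on the log2 scale in both replicates, *Txnrd2* was below 0 in both, and *Selenok* differed in sign. Among all 12336 genes tested, 4228 were above 0 in both replicates and 3977 below 0 in both. The median log2 fold change of the 10 was 0.23, with 0.35 in replicate 1 and 0.12 in replicate 2, beside 0.01 for all genes tested.

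These calls depend on the pairing. In edgeR's quasi-likelihood test without it, 0 of 12336 genes were called higher and 0 lower after Benjamini-Hochberg adjustment at 0.05 (0% in each direction), and so 0 of the 10 selenoprotein mRNAs. An unadjusted p under 0.05 was found for 349 genes, *Selenot* alone among the 10, and DESeq2 called 0 higher and 5 lower. With the replicate number as a block, edgeR called 818 genes higher (6.63%) and 931 lower (7.55%), against 3 and 0 of the 10 here, and *Gpx1* was the only other of the 10 with an unadjusted p under 0.05. That fit has 1 residual degree of freedom and lets all genes share 1 dispersion trend. Its standard errors (SE) and adjusted p-values rest on that assumption, not on each gene's own spread between the replicates. The split of its calls over all genes moved with scaling, to 283 higher and 878 lower with library totals alone and to 594 higher and 334 lower with an offset for gene length and GC content.

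**Figure D2:**
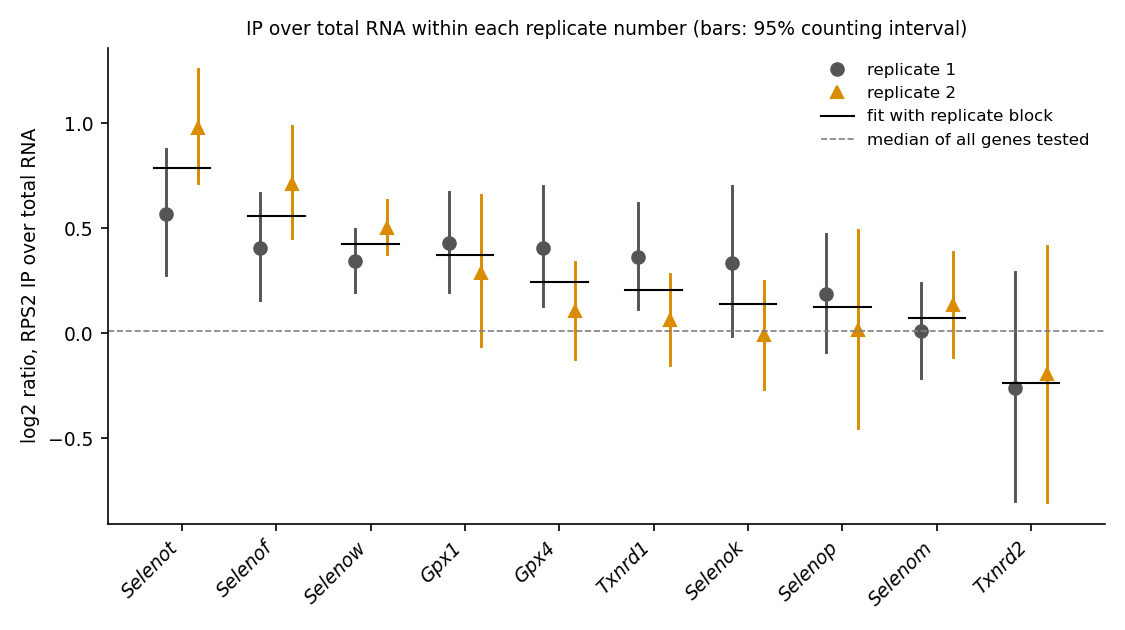
Log2 ratio of RPS2 IP over total RNA within each replicate number for the 10 selenoprotein mRNAs, with bars for the 95% counting interval, black lines for the edgeR fit with the replicate block and a dashed line for the median of all genes tested. Both intervals lie above 0 for *Selenot*, *Selenof* and *Selenow*, and every gene's 2 intervals overlap each other.

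*Selenot*, an oxidoreductase of the endoplasmic reticulum (ER) membrane, had the largest value of the 10. It was at 38.1 and 47.4 CPM in the IP and at 25.6 and 24.0 CPM in total RNA. Both IP libraries lay above both total RNA libraries. The log2 ratio was 0.57 in replicate 1 (95% exact conditional interval 0.28 to 0.88) and 0.98 in replicate 2 (0.72 to 1.26). The blocked fit gave a log2 fold change of 0.79 ± 0.14 (SE from the trend shared by all genes, 2 libraries a group, adjusted p = 2.3e-06, edgeR). *Selenot* was called in each of the 10 blocked fits that were run, with 0.57 as the lowest value, under the length and GC offset.

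*Selenof*, an ER protein that binds the glycoprotein folding sensor UGGT, was at 47.3 and 42.1 CPM in the IP and at 35.6 and 25.6 CPM in total RNA. The groups did not overlap. Its log2 ratio was 0.41 (0.16 to 0.67) and 0.71 (0.45 to 0.99) in replicates 1 and 2. The blocked fit gave 0.56 ± 0.13 (adjusted p = 7.87e-04, edgeR). It was called in 9 of the 10 blocked fits and missed in DESeq2 (adjusted p = 0.107).

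*Selenow* was at 126 and 159 CPM in the IP and at 99.5 and 112 CPM in total RNA. The groups did not overlap here either. Its log2 ratios, 0.34 (0.19 to 0.50) and 0.50 (0.38 to 0.63), had the narrowest intervals of the 10, with 447 counts in its smallest library. The blocked fit gave 0.43 ± 0.11 (adjusted p = 0.00108, edgeR). It was called in 9 of the 10 blocked fits and missed with library totals alone (adjusted p = 0.105), a scaling that moved the median of all genes to -0.07 and that of the 10 to 0.14.

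The other 2 small ER proteins did not pass. *Selenom*, a thioredoxin-fold protein of the ER lumen, was at 47.6 and 36.6 CPM in the IP and at 47.2 and 33.4 in total RNA, which puts each IP library next to its own total RNA library. Its log2 fold change was 0.07 ± 0.13 with the block (adjusted p = 0.787, edgeR) and -0.01 with library totals alone, so no direction can be given. *Selenok*, an ER membrane protein that takes part in ER-associated degradation, was at 23.6 and 32.3 CPM in the IP and at 18.7 and 32.6 in total RNA. Its log2 ratio was 0.33 (-0.01 to 0.70) in replicate 1 and -0.01 (-0.26 to 0.25) in replicate 2, and the blocked value of 0.14 ± 0.15 (adjusted p = 0.614, edgeR) became -0.06 with the length and GC offset.

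The glutathione peroxidases use glutathione to reduce peroxides. *Gpx1*, the main cytosolic enzyme for hydrogen peroxide, was at 54.9 and 19.1 CPM in the IP and at 40.8 and 15.6 in total RNA. The replicates differed far more than the groups. Within replicates the log2 ratio was 0.43 (0.20 to 0.67) and 0.29 (-0.06 to 0.66), and the blocked value was 0.37 ± 0.15 (adjusted p = 0.0648, edgeR), which did not pass the threshold.

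*Gpx4*, which reduces lipid hydroperoxides in membranes, was at 38.2 and 41.9 CPM in the IP and at 28.7 and 39.0 in total RNA. IP replicate 1 lay below total RNA replicate 2, so the groups overlapped. The log2 ratio was 0.41 (0.13 to 0.70) and 0.11 (-0.12 to 0.34), with a blocked value of 0.25 ± 0.13 (adjusted p = 0.235, edgeR). Of the *Gpx4* transcript, 80.9% had a stretch of at least 50 bases with 95% identity or more in another gene, *Gpx4-ps2* and AC122253.3. Reads that aligned to several loci were not counted, so the level of *Gpx4* is uncertain in all 4 libraries. *Selenok* had such stretches over 24.1% of its transcript, in 5 other genes that include *Selenok-ps5*, so its level is uncertain as well.

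The thioredoxin reductases use NADPH to keep thioredoxin reduced. Cytosolic *Txnrd1* was at 47.1 and 45.7 CPM in the IP and at 36.5 and 43.7 in total RNA. Both IP libraries lay above both total RNA libraries, but IP replicate 2 only just above total RNA replicate 2, and the log2 ratio was 0.36 (0.12 to 0.62) in replicate 1 and 0.06 (-0.15 to 0.28) in replicate 2. The blocked value was 0.21 ± 0.13 (adjusted p = 0.305, edgeR). With *Selenot*, *Selenof* and *Selenow* this made 4 of 10 genes whose groups did not overlap, beside 31.8% of all genes tested.

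Mitochondrial *Txnrd2* was at 7.59 and 5.57 CPM in the IP and at 9.13 and 6.41 in total RNA, on 39 to 105 counts a library. It was the only one of the 10 below 0 in both replicates. Its log2 ratios of -0.26 (-0.80 to 0.29) and -0.20 (-0.80 to 0.41) had the widest intervals, and the blocked value was -0.24 ± 0.29 (adjusted p = 0.659, edgeR). Both intervals include 0.

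*Selenop*, the secreted carrier of selenium, was at 34.5 and 9.97 CPM in the IP and at 30.3 and 9.86 in total RNA. Its 2 replicates lay far apart in both kinds of library, and within each replicate IP and total RNA lay close together. The log2 ratio was 0.19 (-0.09 to 0.47) and 0.02 (-0.45 to 0.49), and the blocked value was 0.12 ± 0.17 (adjusted p = 0.708, edgeR). With the length and GC offset it was -0.07. The exons of *Selenop* overlap those of *Ccdc152* on the opposite strand, and counting was stranded.

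*Selenop* and *Gpx1* differed between the replicates more than any of the other 8 did, and in the same direction in total RNA and in the IP. *Selenop* was 3.07-fold higher in replicate 1 than in replicate 2 in total RNA and 3.46-fold higher in the IP. *Gpx1* was 2.61-fold and 2.87-fold higher. *Selenok* went the other way, at 0.575 and 0.731 of its level in replicate 2. The other 7 lay between 0.737 and 1.42 in total RNA and between 0.794 and 1.36 in the IP.

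The summed markers of some cell types, but not of all, were also clearly higher in replicate 1. The 8 neuronal markers, which include *Tubb3*, *Map2* and *Slc17a7*, were present in every library and summed to between 4064 and 4592 CPM. Of these 8, 2 were higher and 3 lower in replicate 1 in both kinds of library. The 8 astrocyte markers, among them *Gfap* and *Slc1a3*, summed to 2961 and 3625 CPM in replicate 1 (total RNA and IP) and to 1412 and 1556 CPM in replicate 2, and 8 of 8 were higher in replicate 1 in both kinds of library. The 8 microglia markers summed to 138 and 124 CPM in replicate 1 and to 7.23 and 9.43 CPM in replicate 2, again 8 of 8 higher in replicate 1. Of these, *P2ry12*, *Tmem119* and *Aif1* were at 0 in both libraries of replicate 2. They had only 2 to 6 counts a library in replicate 1, too few to show a change on their own. The 5 fibroblast and meninges markers summed to 24.9 and 17.2 CPM against 5.26 and 3.14. Of these, 3 of 5 were higher in replicate 1 in both kinds of library and 0 were lower in both. *Dcn* went the other way in total RNA, at 0.445 CPM in replicate 1 and 1.97 in replicate 2. The part of these cells in the levels of *Selenop* and *Gpx1* was not tested. In bulk samples fewer cells of a type and less RNA per cell cannot be told apart. Markers of the oligodendrocyte lineage summed to between 57.2 and 68.0 CPM, and those of endothelium and of dividing cells to at most 2.82 and 2.23 CPM.

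**Figure D3:**
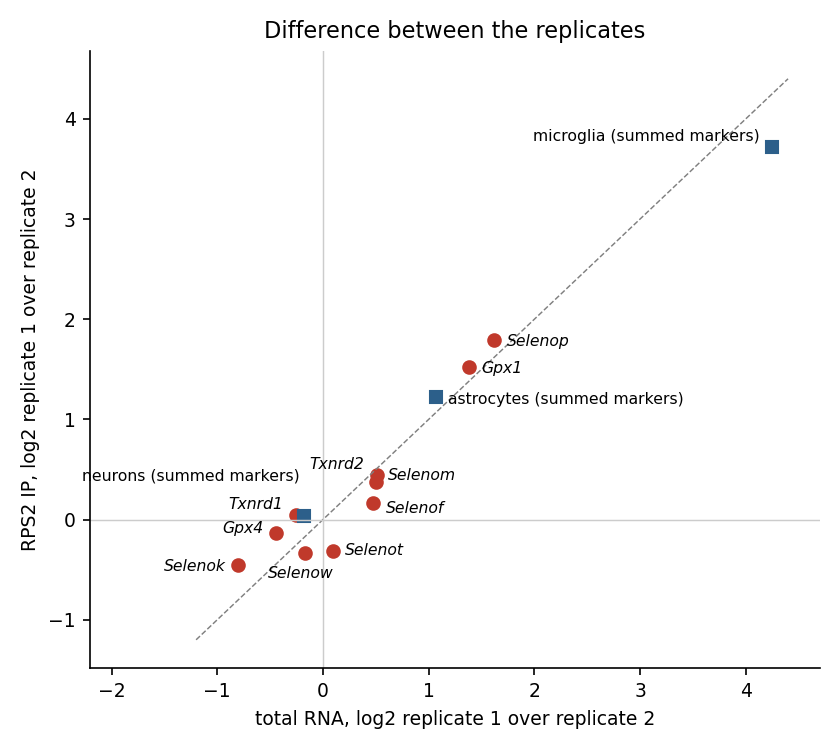
Log2 of replicate 1 over replicate 2 in total RNA (horizontal) and in the RPS2 IP (vertical) for the 10 selenoprotein mRNAs (red circles) and for the summed CPM of 3 marker lists (blue squares), with a dashed line of equality. *Selenop* (3.07-fold and 3.46-fold) and *Gpx1* (2.61-fold and 2.87-fold) lie beyond the astrocyte markers on both axes, while the neuronal markers lie near 0.

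Genes with the first selenocysteine codon near the end of the protein and genes with it further upstream overlapped in IP over total RNA. Among the 10, the 7 whose first selenocysteine codon comes over 10 residues before the end were at a median log2 fold change of 0.37 (0.07 to 0.79, blocked fit) and held the 3 called genes, and the 3 with the codon within 10 residues of the end, *Selenok*, *Txnrd1* and *Txnrd2*, had 0.14, 0.21 and -0.24. Over all 24 selenoprotein genes, 14 tested with the first codon over 10 residues before the end had a median of 0.33. Of these, 13 were above 0 and 4 were called higher, beside 6.63% of all genes tested. Their codons are not all early, and that of *Msrb1* lies at residue 95 of 116. The 7 with the codon within 10 residues of the end had a median of 0.14, with 4 above 0, and *Selenoi* was called among them. The ranges were -0.15 to 1.04 and -0.36 to 0.71, and the limit of 10 residues was set after these values were seen. *Selenoi* lies exactly at that limit, with 10 residues after its codon, against 1 or 2 in the other genes of its class. It alone gives the upper end of 0.71 and the only call there, and the next highest value was 0.21 for *Txnrd1*. How far the ranges overlap therefore rests on *Selenoi*.

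The first selenocysteine codons also differ in their distance to the last exon junction. It is over 55 bases in *Gpx1*, *Gpx4*, *Selenow*, *Selenom*, *Selenop*, *Selenot*, *Selenof* and *Txnrd2*, from 78 bases in *Selenof* to 470 bases in *Selenot*. It is 5 bases in *Selenok*, and in *Txnrd1* the codon lies in the last exon. The 11 tested selenoprotein mRNAs with the longer distance were centred at a median log2 fold change of 0.25, with 3 called higher, and the other 10 at 0.19, with 2 called higher. Over all genes tested the blocked fit called 6.63% higher.

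**Figure D4:**
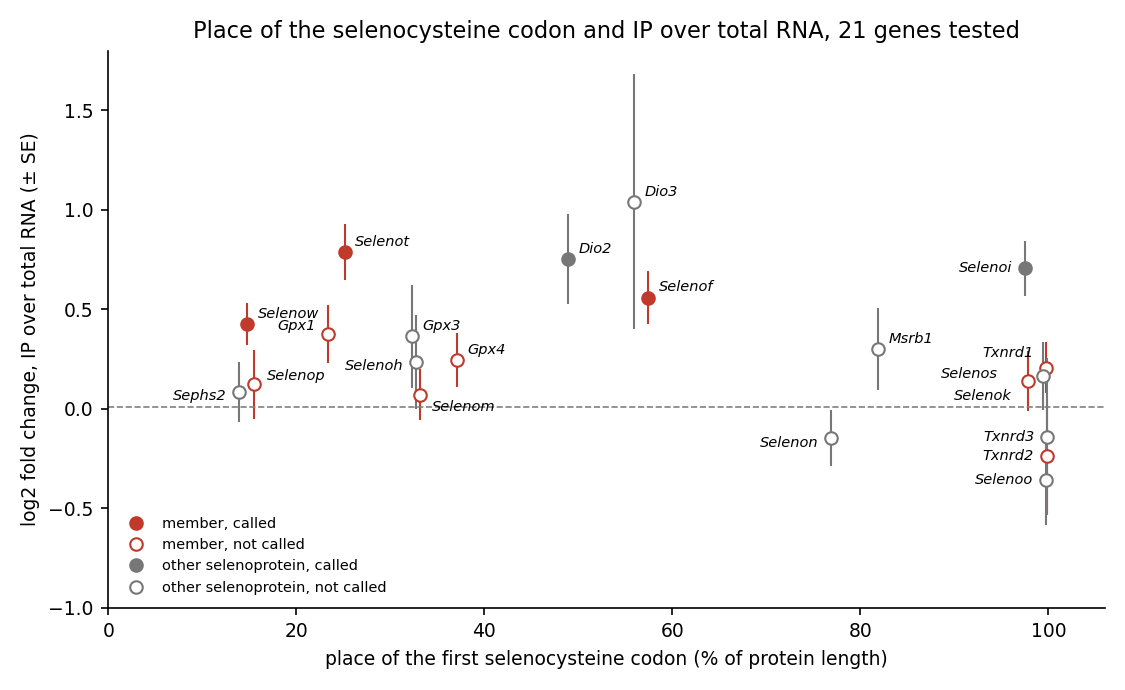
Log2 fold change of RPS2 IP over total RNA (edgeR fit with the replicate block, ± SE) for the 21 selenoprotein genes tested, against the place of the first selenocysteine codon in percent of the protein length (red, the 10 members; grey, the other selenoproteins; filled, called at an adjusted p under 0.05). Called genes lie at early, middle and late places, and *Txnrd2* and *Selenoo*, both at the far right, are among the genes below the dashed median of all genes.

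Of the other 14 selenoprotein genes, 11 were tested, 2 were called higher and 0 lower with the block, and 0 were called without it. *Selenoi*, the ethanolamine phosphotransferase of phospholipid synthesis, was at 34.3 and 53.9 CPM in the IP and at 19.4 and 35.0 in total RNA, a log2 fold change of 0.71 ± 0.14 (adjusted p = 2.1e-05, edgeR, blocked). IP replicate 1 lay just below total RNA replicate 2, so its groups overlapped, and with a library left out and no block its value ran from 0.32 and 0.33 (without RPS2 IP replicate 2 or total RNA replicate 1) to 1.19 (without total RNA replicate 2). *Dio2*, the deiodinase that makes active thyroid hormone, was at 17.8 and 13.3 CPM in the IP and at 14.2 and 5.26 in total RNA, with 0.75 ± 0.22 (adjusted p = 0.00954, edgeR, blocked). Its log2 ratio was 0.31 in replicate 1 and 1.30 in replicate 2, and it was called in 8 of 10 blocked fits. The length and GC offset ended the call (adjusted p = 0.0746, edgeR), and with a library left out and no block its value ran from 0.12 and 0.46 (without total RNA replicate 2 or RPS2 IP replicate 1) to 1.56 (without total RNA replicate 1). The 9 not called lay between -0.36 for *Selenoo*, a mitochondrial pseudokinase that AMPylates proteins, and 1.04 for *Dio3*, which inactivates thyroid hormone and had 2 to 40 counts a library. *Gpx2* and *Selenov* were too low to test and *Dio1* had 0 counts in every library.

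The genes for selenocysteine insertion and selenium supply were centred near 0. Of its 16 genes, all tested, 0 were called higher and 2 lower with the block, beside 6.63% and 7.55% of all genes, and 0 were called without it. With the block 5 of the 16 had an unadjusted p under 0.05, 2 of them higher, beside 3214 of the 12336 genes tested. The median log2 fold change was -0.03. *Lrp8*, the receptor for SELENOP, was at 101 and 83.4 CPM in the IP and at 139 and 118 in total RNA. The groups did not overlap, and the blocked value was -0.48 ± 0.11 (adjusted p = 1.69e-04, edgeR), but with the length and GC offset it was -0.17 (adjusted p = 0.379).

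*Ncl*, the nucleolar protein nucleolin, which also binds SECIS elements, was at 85.6 and 68.1 CPM in the IP and at 105 and 125 in total RNA, with -0.59 ± 0.11 (adjusted p = 4e-06, edgeR, blocked). Its counted exons hold 3 annotated small RNAs, *Snora75*, *Gm24148* and mmu-mir-3535, whose part in its counts was not tested. *Secisbp2*, which encodes the SECIS-binding protein, was at 7.59 and 9.88 CPM in the IP and at 10.7 and 14.8 in total RNA, a value of -0.54 ± 0.24 that did not pass (adjusted p = 0.113, edgeR, blocked). The elongation factor gene *Eefsec* was at 9.40 and 11.3 CPM against 9.13 and 11.0, with 0.04 ± 0.24. The 14 genes not called lay between -0.54 and 0.67, the latter for *Trit1*, which modifies the selenocysteine tRNA.

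Redox genes that work without selenocysteine had nearly the same median as the selenoprotein mRNAs. Of 27 such genes 25 were tested. The block made 6 of them pass as higher and 0 as lower, beside 6.63% and 7.55% of all genes tested. An unadjusted p under 0.05 (edgeR, blocked) was found for 10, of which *Nfe2l2* alone was lower, beside 3214 of the 12336 genes tested. The median log2 fold change was 0.21. *Glrx*, a glutaredoxin, had the largest value at 1.36 ± 0.32 (adjusted p = 6.33e-04, edgeR, blocked), with 7.81 and 9.70 CPM in the IP and 3.56 and 3.29 CPM in total RNA. The other 5 were the peroxiredoxins *Prdx2* (0.45), *Prdx3* (0.57) and *Prdx5* (0.34), the mitochondrial thioredoxin *Txn2* (0.53) and the superoxide dismutase *Sod1* (0.41). All 5 lost the call when the block was combined with library totals alone (adjusted p from 0.0612 for *Prdx3* to 0.257 for *Prdx5*, edgeR), and *Prdx3* (0.188) and *Prdx5* (0.0547) also lost it with the length and GC offset. With a library left out and no block, values ran from 0.17 (without total RNA replicate 1) to 1.08 (without total RNA replicate 2) for *Prdx3*, from 0.14 (without RPS2 IP replicate 2) to 0.52 (without total RNA replicate 2) for *Prdx5* and from 0.25 (without RPS2 IP replicate 1) to 0.56 (without RPS2 IP replicate 2) for *Sod1*. *Prdx2* was at 122 and 139 CPM in the IP and at 88.6 and 103 in total RNA, close to the levels of *Selenow*. The 19 not called lay between -0.44 for *Nfe2l2*, the transcription factor that drives many antioxidant genes, and 0.58 for *Gpx7*.

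**Figure D5:**
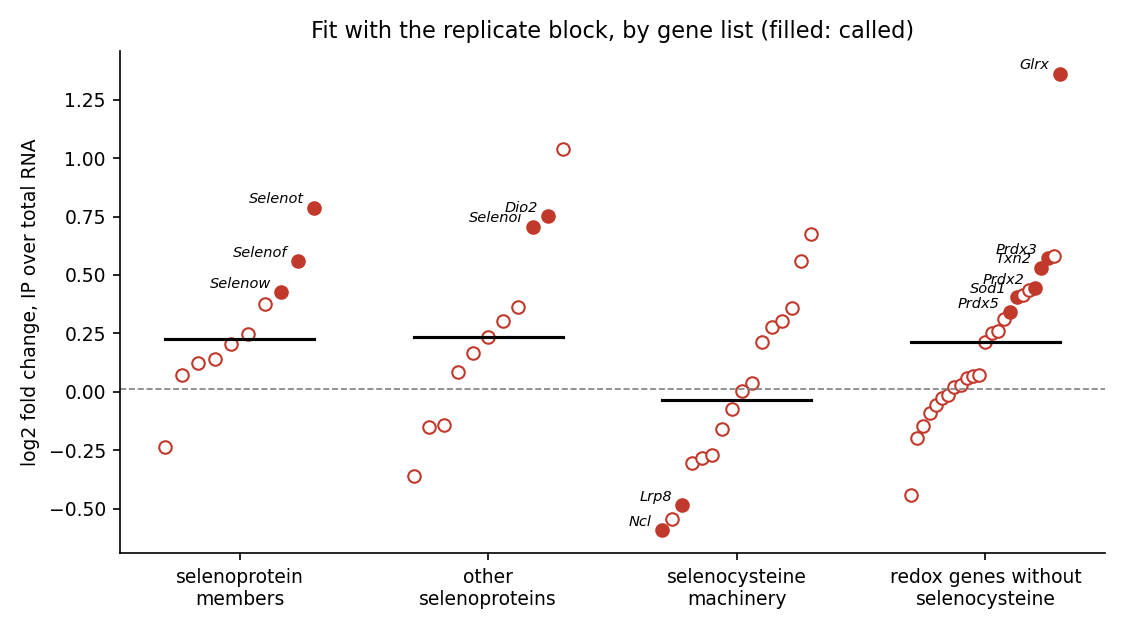
Log2 fold change of RPS2 IP over total RNA (edgeR fit with the replicate block) for each tested gene of 4 lists, sorted within each list, with filled circles for called genes, black bars for list medians and a dashed line for the median of all genes. The medians are 0.23 for the 10 members, 0.24 for the other selenoproteins, -0.03 for the machinery and 0.21 for redox genes without selenocysteine.

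The 10 selenoprotein genes are short, with a median exonic length of 2366 bases against 4672 for all genes tested, and their median GC content was 52.8% against 51.1%. With an offset for both properties in the blocked fit, *Selenot*, *Selenof* and *Selenow* were called at log2 fold changes of 0.57, 0.42 and 0.37. Without the offset these were 0.79, 0.56 and 0.43. The median of the 10 was 0.23 with the offset, and 7 of the 10 were above 0, against 9 without it. The offset used the exonic length pooled over isoforms. No annotated small RNA lies in the counted exons of any of the 10.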

How the data were processed

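RNA from primary cortical neurons was measured in 2 RPS2 IP and 2 total RNA libraries. The authors deposited raw read counts per gene, made with featureCounts 1.5.3 in stranded mode on mm10 after cutadapt and STAR. Per the file headers, reads at several loci or in several genes were not counted. Removal of PCR duplicates was not stated in the sources used here, so intervals cover counting error only. Totals of 4899718 to 16460545 counts set the precision.

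Counts were tested with edgeR 4.0.16 (R 4.3.3; filterByExpr, TMM, two-sided quasi-likelihood test, Benjamini-Hochberg over the 12336 genes kept, threshold 0.05), without a replicate block and with one. Per the methods, each IP and its total RNA share a sample, and deviations from group means correlated at r = 0.733 between same-numbered libraries, so the numbers were read as pairs. Ratios within a pair are log2 CPM differences with a prior count of 2, with a 95% exact conditional binomial interval. Nothing in the labels says that replicates came from separate cultures, so p-values speak only to these samples. Those of the blocked fit rest on the dispersion trend shared by all genes, not on each gene's own spread. Selenocysteine codons were read from GENCODE M21, and copies were sought with blastn 2.17.0 (95% identity, 50 bases). DESeq2 1.42.0, limma-voom 3.58.1, other scalings and filters, thinning to equal totals, omission of *Gm42418* (15.3 to 42.6% of counts) and each library left out were alternatives. The rule for naming took the 10 genes, the other selenoprotein genes and, of the machinery and redox lists, at least those called, with the rest given as counts and ranges. The genes and lists were chosen with earlier results of these data known.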

Additional observations from a re-analysis of the deposited data

How the results depend on the processing

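Without the replicate block, 0 of the 10 selenoprotein mRNAs were called under each alternative. Over all genes, those lower in the IP went from 0 to 14 with no filter on low counts and to 5 in DESeq2, and to between 1 and 8 with a library left out. With the block, 818 genes were higher and 931 lower, among them 3 selenoprotein mRNAs of the 10, 2 other selenoproteins and 6 redox genes higher and 2 machinery genes lower, and these 4 counts were the same under median-ratio size factors (721 and 996 over all genes), at least 10 counts in every library (878 and 926), no filter (769 and 699), limma-voom (685 and 927), thinning to an equal total of 4899718 counts with *Gm42418* still in it (657 and 855) and omission of *Gm42418* (820 and 947). The block together with library totals alone gave 283 and 878, with 2 of the 10, 2, 1 and 2 in the same order. With DESeq2 and the block it was 158 and 382, with 2 of the 10, 1, 1 and 2, and that fit set no adjusted p for 7653 of the 12336 genes, *Selenop*, *Txnrd2*, *Dio2*, *Glrx* and *Prdx3* among them. With the block and the length and GC offset it was 594 and 334, with 3 of the 10, 1, 4 and 1, and 1 redox gene lower, *Nfe2l2*. A stricter rule, adjusted p under 0.01 with more than 2-fold, together with the block left 34 and 41 genes and 0 of the 10.

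The log2 fold change changed sign in some of the uncalled genes. With library totals alone it was -0.00992 for *Selenom* and -0.00726 for *Selenok* without the block, and -0.00972 for *Selenom* with it. With the block, thinning gave -0.054 for *Selenom*, and the offset -0.0692 for *Selenop* and -0.0628 for *Selenok*. With a library left out, and no block, values ran from -0.55 to 1.25 for *Gpx1*, -1.0 to 1.17 for *Selenop*, -0.17 to 0.34 for *Selenom*, -0.22 to 0.58 for *Selenok* and -0.48 to 0.0388 for *Txnrd2*. Uncalled *Gpx4* (0.039 to 0.48) and *Txnrd1* (0.085 to 0.34) stayed above 0. So did the called genes, at 0.61 to 0.93 for *Selenot*, 0.33 to 0.80 for *Selenof* (0.33 without total RNA replicate 2) and 0.25 to 0.59 for *Selenow* (0.25 without RPS2 IP replicate 2). In *Selenot*, *Selenof*, *Selenow* and *Txnrd1* both IP libraries lay above both total RNA libraries. Their sign with a library left out was therefore fixed in advance, and only the size of the value could change. A blocked fit without a library could not be run, since it leaves 1 pair. *Txnrd2* had the fewest counts of the 10, with 39 in its smallest library. The causes of these changes were not tested.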
